A study of Mus musculus with 16 samples.

Results

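NMDA receptors are glutamate-gated cation channels, and 7 genes encode their subunits: Grin1, Grin2a, Grin2b, Grin2c, Grin2d, Grin3a and Grin3b. Their transcripts were followed on microarrays of sorted reporter-positive cells from mouse dorsal striatum and cortex. The members were the transcript clusters, the array's gene-level probe sets, that carried a subunit symbol in the platform annotation. There were 6 such genes among 30627 genes with a cluster of their own, each with 1 cluster. Grin1 was not analysed here. All 6 genes passed the filter on low values that left 20418 genes for testing.

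The cells were sorted by a red fluorescent reporter of parvalbumin, the calcium buffer that marks fast-spiking GABAergic interneurons, from mice of strain C57BL/6J aged 30 days and labelled male. The PV-tdTomato line, genotype PV-tdTomato/+, carried the reporter without Cre. The PVCre line, genotype PVCre/+; tdTomato/+, carried Cre recombinase under parvalbumin control together with a tdTomato allele that the labels do not describe further. Each line gave 4 arrays of dorsal striatum and 4 of cortex (motor and somatosensory), which makes 16 arrays in 4 groups. An array held RNA of 2000 sorted cells pooled from 2 to 4 mice. The labels do not say whether a striatal and a cortical pool came from the same mice, so the spread behind each p-value is that between pools and may be technical.

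An NMDA receptor is built of 4 subunits, and an obligatory pair of GluN1 subunits, the product of Grin1, carries the binding sites for the co-agonists glycine and D-serine. GluN2 subunits, from Grin2a to Grin2d, bind glutamate and set how long the channel stays open and how strongly magnesium blocks it. GluN3 subunits, from Grin3a and Grin3b, also bind glycine and lower the calcium flow of receptors that contain them. In forebrain neurons GluN2B predominates early in life and GluN2A is added during postnatal maturation, while GluN2D is known from interneurons.

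Values are levels on the log2 scale made by RMA, a routine that corrects background, normalizes arrays and summarizes probes, so a difference of 1 is a doubling. A level compares one gene across arrays and was not compared between genes. Background was read in each array from 23 antigenomic probe sets, whose highest value was between 5.74 and 6.61 in the 16 arrays. Precision is limited by the number of arrays.

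The sorted cells were not equally rich in parvalbumin transcript. Pvalb itself lay at 6.69 to 8.4 in 6 arrays, and at 10.2 to 12.48 in the other 10. The 6 were PVCre cortex replicates 2 and 4 and, in each region of the PV-tdTomato line, the arrays numbered 3 and 4. In PVCre cortex replicates 2 and 4 the genes of GABA synthesis were low as well, with Gad1 at 8.88 and 7.4 and Gad2 at 6.79 and 6.56. The 4 PV-tdTomato arrays with low Pvalb still had Gad1 at 12.09 to 12.77. Averaged over 10 pan-neuronal genes, the level was 9.92 to 11.68 in PV-tdTomato striatum and 9.93 to 11.81 in PV-tdTomato cortex, against 9.5 to 10.67 in PVCre striatum and 8.27 to 10.48 in PVCre cortex. The 9 markers of parvalbumin cells and GABAergic interneurons averaged 7.08 to 12.45 over the 16 arrays, with the lowest array in PVCre cortex. Of cells outside the sort, 7 oligodendrocyte markers averaged 12.87 to 15.25, 7 astrocyte markers 6.27 to 8.31, 7 endothelial and pericyte markers 5.62 to 9.16 and 8 pyramidal cell markers 5.24 to 6.4. The separation of positive from negative control probe sets was 4.16 to 4.85 in PV-tdTomato and 3.08 to 3.93 in PVCre arrays. No batch, slide or date is named in the labels, so any batch that coincided with a line cannot be told apart from it.

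The RefSeq promoter table of build GRCm38.p6 held a start for 4 of the 7 genes, Grin1, Grin2c, Grin2d and Grin3b. Grin2c is shown because it was measured here and the table's promoter for it included bases outside the annotated gene. Its levels, like those of Grin2d and Grin3a, were lower in all 8 PVCre arrays than in all 8 PV-tdTomato arrays. The share of all genes so separated was not computed. The cortical difference of Grin2c turned when arrays were centred on the pan-neuronal genes. The 196 bases upstream of Grin2c that lie outside the annotated gene are at chr11:115267298-115267493 on the minus strand, with 64.8% G or C.

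Grin2c upstream: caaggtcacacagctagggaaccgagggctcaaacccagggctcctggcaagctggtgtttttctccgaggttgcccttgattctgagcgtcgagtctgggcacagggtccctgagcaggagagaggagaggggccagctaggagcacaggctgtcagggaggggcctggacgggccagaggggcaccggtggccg

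The GC box core GGGCGG, or its complement CCGCCC on the other strand, occurred 0 times in these bases. It occurred 3 times on the forward strand in the last 54 bases of the table's 250-base window, which lie inside the gene and are not shown, and 2 of the 3 copies overlap by 1 base. Of 32851 promoter windows of 250 bases in the table, 32.7% held the motif. The windows of Grin1, Grin2d and Grin3b held none, but those of Grin2d and Grin3b lie wholly inside the annotated gene. These matches describe the sequence and say nothing of a factor bound there.

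**Figure D1:**
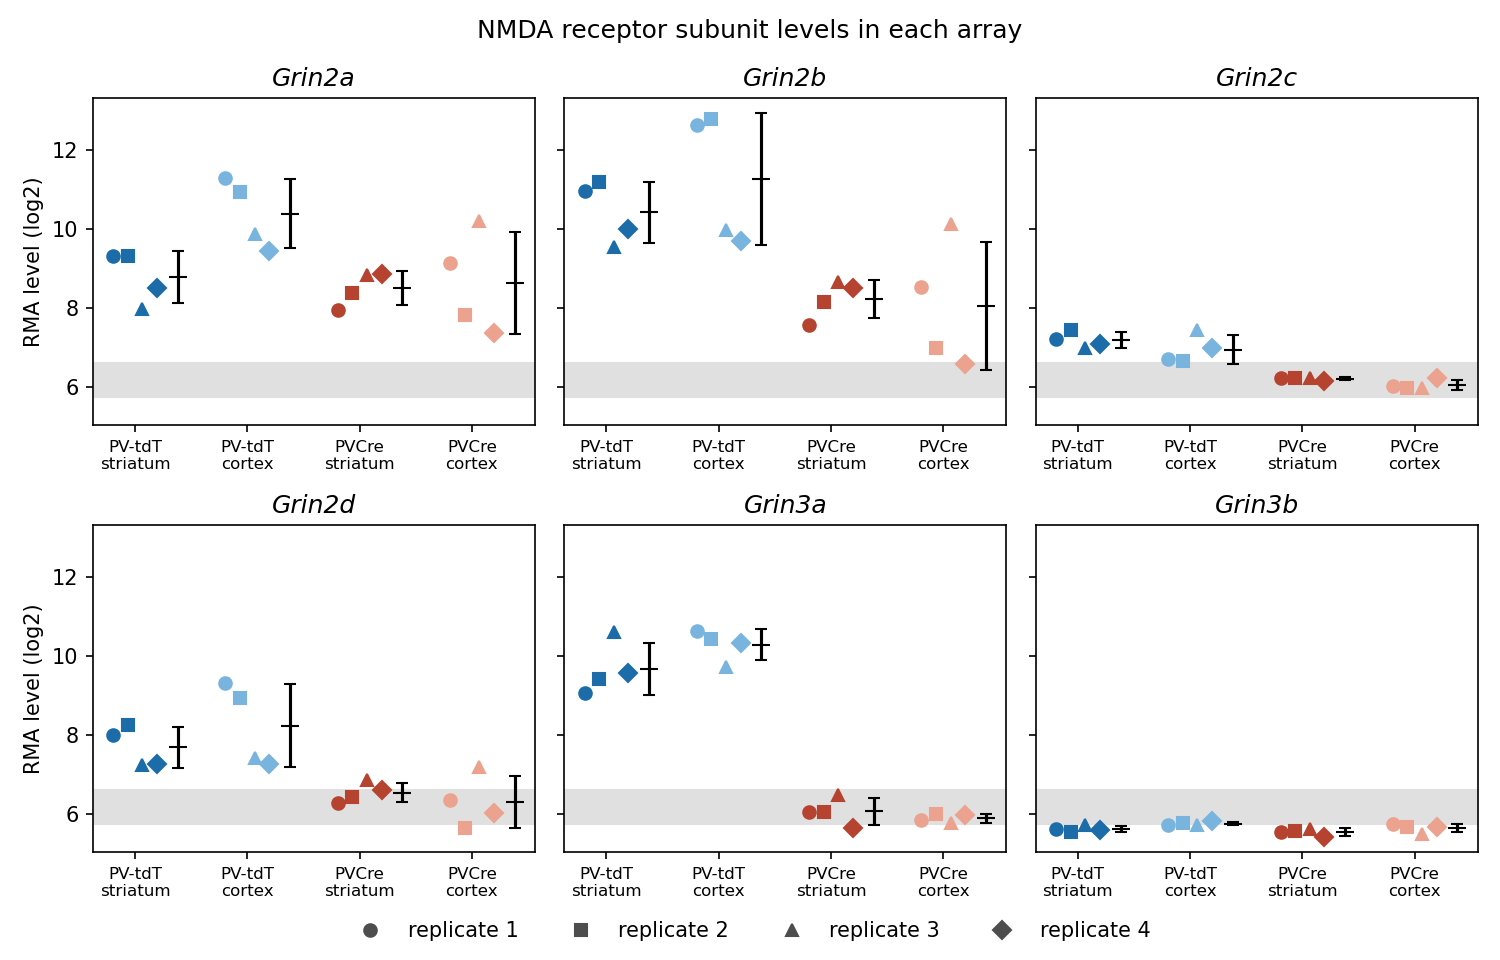
Level of each NMDA receptor subunit gene (vertical axis, RMA level, log2) in the 4 arrays of each group (horizontal axis; PV-tdT is the PV-tdTomato line). Symbols are replicates, horizontal marks with bars are the mean and SD of 4 arrays, and the grey band is the range over arrays of the highest background probe set, 5.74 to 6.61. Grin3a lies between 9.07 and 10.63 in PV-tdTomato arrays and between 5.65 and 6.49 in PVCre arrays.

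The largest difference among the subunits was that of Grin3a between the lines. Grin3a (chr4:49661611-49846023), which encodes the glycine-binding GluN3A subunit known from juvenile synapses, had levels of 9.07, 9.41, 10.6 and 9.57 in PV-tdTomato striatum. Cortical arrays of the same line had 10.63, 10.44, 9.72 and 10.34. In PVCre striatum the levels were 6.06, 6.05, 6.49 and 5.65, and in PVCre cortex 5.84, 5.99, 5.76 and 5.97. The 8 PV-tdTomato arrays thus lay far above the 8 PVCre arrays, with no overlap in either region. Of all genes, 50.3% in striatum and 47.1% in cortex likewise had no overlap between the lines. Grin3a was at or under the highest background probe set in 1 of 4 PVCre striatal arrays and in 4 of 4 PVCre cortical arrays.

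In striatum Grin3a averaged 9.66 ± 0.66 (SD, n = 4) in PV-tdTomato and 6.06 ± 0.34 in PVCre, a difference of -3.6 ± 0.28 (SE), which is 12.1-fold on the measured means, with 3 of 4 PVCre arrays above background (limma adjusted p = 3.8e-07). In cortex it averaged 10.28 ± 0.4 and 5.89 ± 0.11, a difference of -4.39 ± 0.28 (limma adjusted p = 1.2e-07). Because no PVCre cortical array measured it above background, that change is given as at least 16.1-fold lower, against a mean of the arrays' background limits of 6.27. Both calls held in 28 of 28 other settings, with differences of -3.8 to -2.84 in striatum and -4.73 to -2.86 in cortex. Settings that left out only arrays of the other region could not change these differences. The 28 settings include arrays centred on the pan-neuronal genes, where the differences were -2.84 ± 0.69 (adjusted p = 0.024) and -2.86 ± 0.69 (adjusted p = 0.0068).

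Markers of other cell types were compared between the lines beside Grin3a. Of all genes, 35% were lower and 18.4% higher in PVCre striatum, and 34.3% were lower and 19.2% higher in PVCre cortex. A marker count near these shares is not particular to a cell type. The 5 measured markers of oligodendrocyte precursors had a mean level of 8.49 to 11.75 in PV-tdTomato striatum and 9.19 to 11.47 in PV-tdTomato cortex, against 7.6 to 8.01 and 8.32 to 8.96 in PVCre. Of these 5 markers, 4 were lower in PVCre striatum and 3 in PVCre cortex. The 10 markers of other GABAergic interneurons averaged 7.9 to 8.17 in PV-tdTomato striatum, 9.66 to 11.84 in PV-tdTomato cortex, 6.16 to 6.98 in PVCre striatum and 5.96 to 6.89 in PVCre cortex. Of the 9 that were tested, 3 were lower in PVCre striatum, near the share of all genes, and 9 in PVCre cortex. All 7 measured microglial markers were higher in PVCre in both regions, with means of 7.5 to 9.71 in PVCre and 5.39 to 5.91 in PV-tdTomato arrays. Of 7 endothelial and pericyte markers, 5 were higher and 1 lower in PVCre striatum, where they averaged 7.04 to 9.16 against 6.03 to 6.55 in PV-tdTomato striatum, and 1 was higher and 1 lower in PVCre cortex. Of 7 oligodendrocyte markers, 2 were higher in PVCre striatum and 4 in PVCre cortex, with cortical means of 14.93 to 15.25 in PVCre and 13.21 to 15.05 in PV-tdTomato. Among 5 tested astrocyte markers, 2 were lower in PVCre in each region. Among 5 tested pyramidal cell markers, 3 were lower and 1 higher in each region. Among 8 markers of striatal projection neurons, 4 were lower in PVCre striatum and 2 in PVCre cortex. The part of these cell types in the Grin3a result was not tested, and in a pool of sorted cells fewer cells of a type and less RNA per cell cannot be told apart.

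Grin3b (chr10:79970397-79977190), the gene of GluN3B, known from motor neurons, was not measured above background in any array. Its levels were 5.63, 5.54, 5.73 and 5.6 in PV-tdTomato striatum and 5.71, 5.77, 5.73 and 5.82 in PV-tdTomato cortex. They were 5.54, 5.58, 5.63 and 5.41 in PVCre striatum and 5.74, 5.68, 5.49 and 5.67 in PVCre cortex. All 16 values were at or under the highest background probe set of their array, and the groups overlapped in each comparison of regions or lines. Its differences were not called in any of the comparisons, and at this signal a change of Grin3b could not be detected.

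Grin2b was the GluN2 gene with the largest differences between the lines. Grin2b (chr6:135713221-136173615) encodes GluN2B, the subunit of slowly closing receptors that binds the kinase CaMKII. It was at 10.97, 11.18, 9.54 and 9.99 in PV-tdTomato striatum and at 12.63, 12.8, 9.97 and 9.7 in PV-tdTomato cortex. In PVCre striatum it was at 7.58, 8.14, 8.66 and 8.5, and in PVCre cortex at 8.53, 6.99, 10.13 and 6.57. The striatal groups of the lines did not overlap, as in 50.3% of all genes. In cortex PVCre replicate 3 lay above PV-tdTomato replicates 3 and 4. Within the PV-tdTomato line, replicates 1 and 2 were higher than replicates 3 and 4 in both regions, in step with their higher Pvalb.

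The group means of Grin2b were 11.28 ± 1.67 (SD, n = 4) in PV-tdTomato cortex, 10.42 ± 0.79 in PV-tdTomato striatum, 8.22 ± 0.48 in PVCre striatum and 8.05 ± 1.62 in PVCre cortex. The line difference was -2.2 ± 0.81 (SE, 4.6-fold, limma adjusted p = 0.034) in striatum and -3.22 ± 0.81 (9.34-fold, adjusted p = 0.0041) in cortex. The striatal call was lost when any single one of PV-tdTomato striatum replicates 1 and 2 and PVCre striatum replicates 1, 2 and 4 was left out (differences of -2.29 to -1.95, adjusted p of 0.05 to 0.084), and it ended with arrays centred on the pan-neuronal genes (-1.44, adjusted p = 0.15). The cortical difference was -1.95 (adjusted p = 0.091) without PVCre cortex replicates 2 and 4, the arrays with little Gad1 and Gad2.

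Grin2d followed the same order of groups as Grin2b. Grin2d (chr7:45831883-45871194) encodes GluN2D, a subunit of very slowly closing receptors with weak magnesium block. Its levels were 7.99, 8.26, 7.24 and 7.26 in PV-tdTomato striatum and 9.32, 8.94, 7.41 and 7.26 in PV-tdTomato cortex. In PVCre they were 6.27, 6.43, 6.85 and 6.61 in striatum and 6.35, 5.65, 7.18 and 6.02 in cortex. In neither region did the lines overlap, as in 50.3% of all genes in striatum and 47.1% in cortex. Even so, in cortex PVCre replicate 3, at 7.18, came close to the lowest PV-tdTomato array, at 7.26. Grin2d was at or under background in 2 of 4 PVCre cortical arrays.

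Mean Grin2d fell from 7.69 ± 0.52 (SD, n = 4) to 6.54 ± 0.25 between the lines in striatum and from 8.23 ± 1.05 to 6.3 ± 0.65 in cortex. These are differences of -1.15 ± 0.45 (SE, 2.21-fold, limma adjusted p = 0.042) and -1.93 ± 0.45 (3.81-fold, adjusted p = 0.0023). The striatal call, like that of Grin2b, was lost when any single one of those 5 striatal arrays was left out, and also without PVCre cortex replicate 1 (differences of -1.17 to -0.96, adjusted p of 0.052 to 0.11). With arrays centred on the pan-neuronal genes neither call remained (-0.39 and -0.4).

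Grin2c differed less between the lines, but with little spread. Grin2c (chr11:115249169-115267297) encodes GluN2C, best known from cerebellar granule cells. It was at 7.21, 7.45, 6.98 and 7.08 in PV-tdTomato striatum and at 6.7, 6.65, 7.45 and 6.98 in PV-tdTomato cortex. In PVCre it was at 6.23, 6.23, 6.23 and 6.15 in striatum and at 6.03, 5.97, 5.98 and 6.22 in cortex. All 8 PVCre arrays were below all 8 PV-tdTomato arrays, and 1 of 4 striatal and 3 of 4 cortical PVCre arrays were at or under background. Within a region the lines did not overlap in 50.3% of all genes in striatum and 47.1% in cortex.

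From 7.18 ± 0.21 to 6.21 ± 0.04 (SD, n = 4) in striatum, Grin2c was lower in PVCre by a difference of -0.97 ± 0.16 (SE, 1.96-fold, limma adjusted p = 0.00016). From 6.94 ± 0.37 to 6.05 ± 0.11 in cortex, the difference was -0.9 ± 0.16 (1.86-fold, adjusted p = 0.0003). Signal near background in PVCre limits how far these folds can be read. Both calls held in 27 of 28 other settings, but with arrays centred on the pan-neuronal genes the striatal difference shrank to -0.21 (adjusted p = 0.9) and the cortical one turned to 0.63 (adjusted p = 0.42).

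Grin2a was the only GluN2 gene whose regional groups did not overlap in the PV-tdTomato line, as in 5.98% of all genes. That region difference was not called (limma adjusted p = 0.28). Grin2a (chr16:9567901-9996083) encodes GluN2A, the subunit of fast-closing receptors. It was at 9.32, 9.31, 7.97 and 8.5 in PV-tdTomato striatum and at 11.3, 10.95, 9.87 and 9.44 in PV-tdTomato cortex, so every cortical array was above every striatal one. In PVCre striatum the levels were 7.94, 8.39, 8.83 and 8.87, and in PVCre cortex 9.13, 7.83, 10.2 and 7.37. There the cortical arrays lay on both sides of the striatal ones, with the low replicates 2 and 4 being those with little Gad1.

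Between the lines, Grin2a was at 8.77 ± 0.66 (SD, n = 4) and 8.51 ± 0.43 in striatum, a difference of -0.27 ± 0.57 (SE, 95% interval -1.48 to 0.95, limma adjusted p = 0.72), whose sign turned under quantile normalization (0.22) and with arrays centred on the pan-neuronal genes (0.5). In cortex it was at 10.39 ± 0.88 and 8.63 ± 1.29, a difference of -1.76 ± 0.57 (3.39-fold, adjusted p = 0.018) between groups that overlapped. That call was lost when any single one of PV-tdTomato cortex replicates 1 and 2 and PVCre cortex replicates 2 and 4 was left out (differences of -1.57 to -1.34, adjusted p of 0.05 to 0.062), and without both of the latter it was -0.73 (adjusted p = 0.31). The call also ended under quantile normalization (-1.21, adjusted p = 0.073), with the cortical arrays compared alone (adjusted p = 0.059) and with arrays centred on the pan-neuronal genes (-0.23, adjusted p = 0.69).

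Taking the line comparison over the whole family, 4 of 6 subunit genes were lower in PVCre striatum (Grin2b, Grin2c, Grin2d and Grin3a) and 5 of 6 in PVCre cortex, where Grin2a joined them and the sign of Grin2c turned with arrays centred on the pan-neuronal genes. None was higher. On the deposited scale the means of both PV-tdTomato groups stood above those of both PVCre groups for each gene but Grin3b, and within a line the regions, neighbours in that order, did not differ by the test. Of the 10 pan-neuronal genes themselves, 1 was lower and 1 higher in PVCre striatum, and 6 were lower and 1 higher in PVCre cortex. Of the 20418 genes tested, 35% were lower and 18.4% higher in PVCre striatum (53.4% in either direction), and 34.3% were lower and 19.2% higher in PVCre cortex (53.5% in either direction). The groups did not overlap in 50.3% of genes in striatum and in 47.1% in cortex. The median difference of the subunits was -1.06 in striatum and -1.84 in cortex, against -0.22 for all genes in both. Without the 6 arrays lowest in Pvalb the counts were again 4 and 5, and with arrays centred on the pan-neuronal genes, which moves the median of all genes to 0.54 and 1.31, they were 1 and 2. Of the genes called, 34.4% and 35.9% were higher in PVCre, 49.9% and 52.3% under quantile normalization and 82.9% and 97.4% with that centring.

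**Figure D2:**
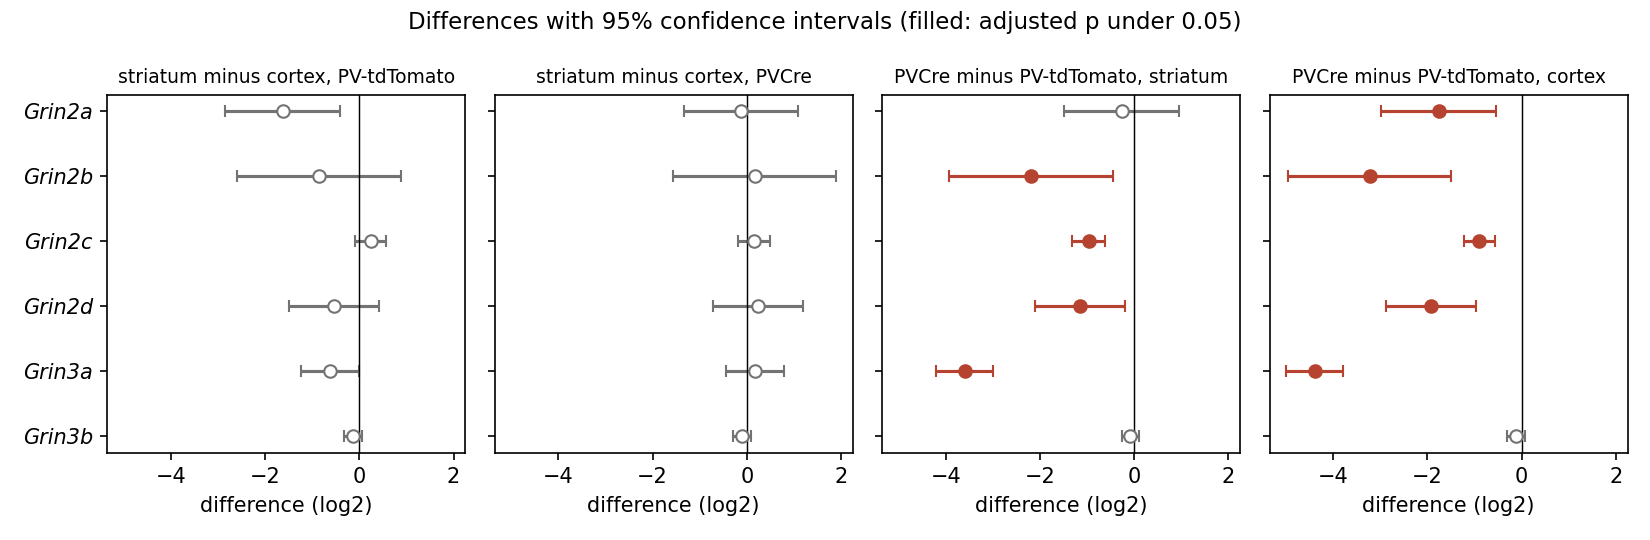
Differences of the subunit genes on the log2 scale (horizontal axis) with 95% confidence intervals, for striatum minus cortex in each line and PVCre minus PV-tdTomato in each region. Filled points passed an adjusted p of 0.05. None of the 6 genes passed between the regions, 4 passed between the lines in striatum and 5 in cortex, and Grin3a had the largest differences, -3.6 and -4.39.

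Striatum and cortex were compared to ask how the cells of the 2 regions differ. No subunit gene passed the limma threshold over both lines, in the PV-tdTomato line or in the PVCre line, where 4.27% (3.34% higher, 0.931% lower), 2.33% (1.74% higher, 0.593% lower) and 3.89% (2.86% higher, 1.03% lower) of all genes did. At an unadjusted p under 0.05 the counts were 1, 2 and 0 of 6, against 15.3%, 7.96% and 15.4% of all genes. The leading gene was Grin2a, lower in striatum by a difference of -0.87 ± 0.4 (SE, adjusted p = 0.32) over both lines and -1.62 ± 0.57 (95% interval -2.84 to -0.4, adjusted p = 0.28) in PV-tdTomato, where its groups did not overlap, as in 5.98% of all genes. In PVCre the difference of Grin2a was -0.12 ± 0.57 (95% interval -1.34 to 1.09, adjusted p = 0.94).

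The other subunits had region differences in PV-tdTomato of -0.86 ± 0.81 (SE) for Grin2b, -0.54 ± 0.45 for Grin2d, -0.62 ± 0.28 for Grin3a, 0.24 ± 0.16 for Grin2c and -0.14 ± 0.09 for Grin3b, with limma adjusted p of 0.6 to 0.95. Of these, Grin3a was called without PV-tdTomato striatum replicate 3, at -0.93 (adjusted p = 0.04). In PVCre the 5 differences were between -0.1 and 0.24. These intervals reach well past a doubling for Grin2b, from -2.59 to 0.88 in PV-tdTomato and from -1.57 to 1.9 in PVCre, so they do not show that Grin2b was alike in the regions.

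The region counts changed when the 6 arrays lowest in Pvalb were left out. Over both lines, 3 of 6 subunits then passed, with Grin2a at -1.49 ± 0.26 (SE, limma adjusted p = 0.0094), Grin2b at -1.37 ± 0.33 (adjusted p = 0.037) and Grin2c at 0.43 ± 0.09 (adjusted p = 0.018). In PV-tdTomato, 3 of 6 passed as well, namely Grin2a at -1.81 ± 0.39 (adjusted p = 0.034), Grin3a at -1.29 ± 0.25 (adjusted p = 0.023) and Grin2c at 0.65 ± 0.13 (adjusted p = 0.025). Of all genes, 7.8% then passed over both lines and 5.1% in PV-tdTomato, where each group held 2 arrays. Markers of other GABAergic interneurons moved with region in the full set of arrays, with 6 of 9 lower in striatum over both lines (median -1.88) and 6 of 9 in PV-tdTomato (median -3.66), against 0 of 9 in PVCre. Their part in the region differences of the subunits was not tested. Grin2c, higher in striatum here, was at -0.28 ± 0.47 over both lines with all arrays centred on the pan-neuronal genes.

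The region differences of the lines did not differ from each other by limma's interaction test, which called 0 of 6 subunits at an adjusted p of 0.75 to 0.99, against 0.196% of all genes (0.147% higher, 0.049% lower). At an unadjusted p under 0.05 it was 0 of 6, against 7.16% of all genes. The estimates, PVCre minus PV-tdTomato, were 1.49 ± 0.8 (SE) for Grin2a, 1.02 ± 1.15 for Grin2b, 0.79 ± 0.4 for Grin3a, 0.78 ± 0.63 for Grin2d, -0.07 ± 0.22 for Grin2c and 0.03 ± 0.13 for Grin3b. The interval for Grin2a, from -0.23 to 3.22, includes differences larger than the region difference itself.

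**Figure D3:**
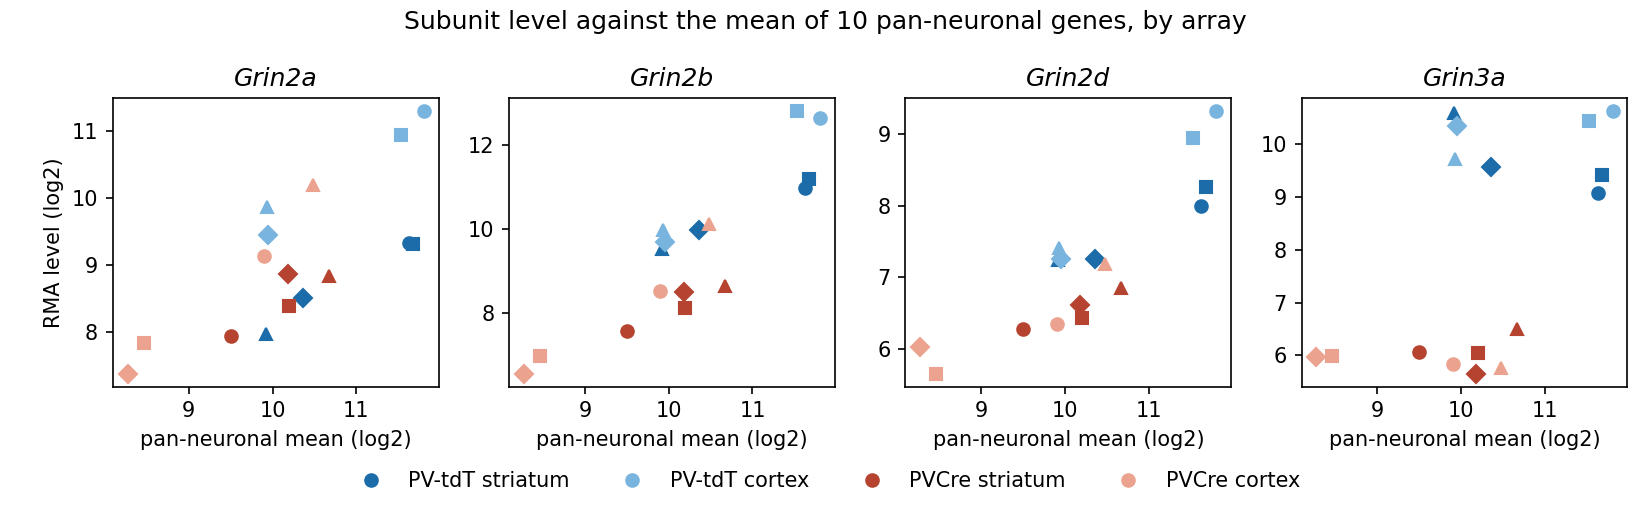
Level of 4 subunit genes (vertical axis, log2) against the mean level of 10 pan-neuronal genes (horizontal axis, log2) in each of the 16 arrays, coloured by group, with circles, squares, triangles and diamonds for replicates 1 to 4. At a like pan-neuronal level, Grin2a is higher in cortical than in striatal arrays of the same line, and Grin3a separates the lines. Relative to the pan-neuronal mean, the median of all genes was also lower in striatum in PVCre, by a difference of -0.87.

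For Grin2a and Grin2b the SD of each group was smaller when levels were taken relative to the pan-neuronal mean, and for Grin3a and Grin3b it was larger. Grin3a was highest, at 10.6, in PV-tdTomato striatum replicate 3, the array of that group with the lowest pan-neuronal mean, 9.92. On the relative scale Grin2a was at -2.13 ± 0.25 (SD, n = 4) in PV-tdTomato striatum, between -2.38 and -1.87, and at -0.41 ± 0.23 in PV-tdTomato cortex, between -0.58 and -0.07. In PVCre it was at -1.63 ± 0.25 in striatum, between -1.84 and -1.31, and at -0.65 ± 0.27 in cortex, between -0.9 and -0.28. On that scale the striatal arrays lay below the cortical ones without overlap in each line. The share of all genes without overlap on that scale was not computed. The limma fit with this centring gave -1.35 ± 0.35 (SE, adjusted p = 0.08) over both lines, -1.71 ± 0.49 (adjusted p = 0.27) in PV-tdTomato and -0.98 ± 0.49 (adjusted p = 0.36) in PVCre, none past the threshold. The centring moves every gene, and the median region difference of all genes became -0.47 over both lines, -0.07 in PV-tdTomato and -0.87 in PVCre. In PVCre the centred difference of Grin2a was thus close to that of the median gene.

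Relative to the same mean, Grin2d in PV-tdTomato was at -3.21 ± 0.41 (SD, n = 4) in striatum and -2.58 ± 0.09 in cortex, and in PVCre at -3.6 ± 0.26 and -2.97 ± 0.58. Grin2b was at -0.48 ± 0.13 and 0.47 ± 0.7 in PV-tdTomato and at -1.92 ± 0.17 and -1.22 ± 0.6 in PVCre. On this scale the highest PVCre striatal value of Grin2b, -1.68, was below the lowest of PV-tdTomato striatum, -0.66. The share of all genes that do so was not computed. The limma fit with this centring did not call Grin2b between the lines in striatum (-1.44 ± 0.52, SE, adjusted p = 0.15). For Grin3a the relative means were -1.24 ± 1.49 and -0.52 ± 0.75 in PV-tdTomato and -4.08 ± 0.45 and -3.39 ± 1.19 in PVCre.

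Across the 16 arrays the GluN2 genes varied together to different degrees. Pearson's r was 0.98 between Grin2b and Grin2d, 0.87 between Grin2a and Grin2b, 0.83 between Grin2a and Grin2d and 0.84 between Grin2c and Grin3a, but 0.27 between Grin2a and Grin2c. These describe arrays that share the line, the region and the neuronal content, and carry no test. Grin3b, at background, reached at most 0.56 with another subunit.

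The genes whose levels ran most like each subunit over the 16 arrays, of 13491 searched, were named with their r. Grin3a ran with Nrxn2 (0.992), a presynaptic adhesion gene, Grik4 (0.992), a kainate receptor subunit, and the helicase gene Recql (0.988). Grin2b ran with the chemokine gene Cx3cl1 (0.981), Cpne6 (0.977), a calcium-binding copine, and Nars (0.977), an aminoacyl-tRNA synthetase. For Grin2d they were Adarb1 (0.986), an RNA-editing enzyme, the N-type calcium channel gene Cacna1b (0.981) and Ube2z (0.98), of ubiquitin transfer. Grin2a ran with the nuclear receptor gene Rora (0.978), Serpini1 (0.971), which encodes neuroserpin, and Rasgrf2 (0.97), an exchange factor for Ras. Grin2c ran with Zfp983 (0.968), Zfp553 (0.958) and Scara3 (0.957), and Grin3b, at background, with Ppp6r3, Usp53 and Abca8b at 0.789 to 0.797.

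NMDA receptors work in a complex of scaffolds, transport proteins and enzymes, and 48 such partner genes were listed by role. Of these, 43 had a cluster and 42 were tested, and the rest were not analysed here. Between the regions over both lines 1 of 42 passed, against 3.34% of all genes higher and 0.931% lower. That gene was Actn2, whose product alpha-actinin links receptors to the actin skeleton.

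Actn2 was at 7.58, 7.36, 6.78 and 7.11 in PV-tdTomato striatum and 6.6, 6.24, 5.96 and 5.9 in PV-tdTomato cortex. In PVCre it was at 6.6, 7.42, 7.25 and 7.14 in striatum and 6.13, 5.68, 6.03 and 5.91 in cortex, so that in each line the striatal arrays were all above the cortical ones, as in 5.98% and 13.4% of all genes without overlap. Its difference was 1.1 ± 0.15 (SE, 2.14-fold, limma adjusted p = 0.00027) over both lines, 1.03 ± 0.21 (adjusted p = 0.014) in PV-tdTomato and 1.17 ± 0.21 (adjusted p = 0.0049) in PVCre. With arrays centred on the pan-neuronal genes it was 0.62 (adjusted p = 0.57) over both lines, 0.94 (adjusted p = 1) in PV-tdTomato and 0.31 (adjusted p = 0.65) in PVCre, and under quantile normalization the PV-tdTomato call ended too (0.86, adjusted p = 0.085). Without the 6 arrays lowest in Pvalb it was 1.04 (adjusted p = 0.0074) over both lines but 1.05 (adjusted p = 0.055) in PV-tdTomato, and without PVCre cortex replicates 2 and 4 it was 1.02 (adjusted p = 0.1) in PVCre. Markers of striatal projection neurons moved with it, with 5 of 8 higher in striatum over both lines and means of 8.82 to 9.11 in PV-tdTomato striatum and 7.05 to 8.11 in PV-tdTomato cortex. In PVCre those means were 7.78 to 8.62 and 6.58 to 7.05. Their part in the Actn2 result was not tested.

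Homer2, a scaffold that ties metabotropic receptors to the NMDA receptor complex, was lower in striatum in the PV-tdTomato line. It lay at 7.29, 7.28, 7.17 and 7.27 there and at 8.01, 7.89, 7.73 and 7.65 in cortex, a difference of -0.57 ± 0.1 (SE, limma adjusted p = 0.0032) without overlap. With arrays centred on the pan-neuronal genes it was -0.66 ± 0.62 and no longer called. Homer2 and Actn2 were the 2 of 42 partner genes called in PV-tdTomato, against 2.33% of all genes, and Actn2 the 1 called in PVCre, against 3.89%.

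Between the lines, 20 of 42 partner genes were lower and 1 was higher in PVCre striatum, and 28 were lower and 1 higher in PVCre cortex. The background was 35% and 34.3% of all genes lower, and the median difference of the partners was -0.84 and -1.3, against -0.22 for all genes. These counts changed with the scaling: with arrays centred on the pan-neuronal genes 0 were lower and 0 higher in striatum, and 2 lower and 3 higher in cortex. Without the 6 arrays lowest in Pvalb 30 and 27 were lower, and without PVCre cortex replicates 2 and 4 the cortical count was 19. Centring on the pan-neuronal genes also changed the SE, in striatum from 0.15 to 0.63 for Srr and from 0.23 to 0.57 for Apba1. The difference of Apba1, then -1.23, was thus not called.

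Among the scaffolds, 9 of 17 were lower in PVCre striatum and 11 of 17 in PVCre cortex, against 35% and 34.3% of all genes. Homer1 was the 1 that was higher in each (0.53 ± 0.16 and 0.7 ± 0.16, SE). Dlg4, the gene of the postsynaptic scaffold PSD-95, differed by -2.38 ± 0.34 in striatum and -2.28 ± 0.34 in cortex (limma adjusted p = 4.8e-05 and 7.2e-05). Homer2 differed by -0.75 ± 0.1 (adjusted p = 2.3e-05) and -1.43 ± 0.1 (adjusted p = 1.6e-07), with PVCre levels of 6.29 to 6.59, but by 0.01 and 0.1 with arrays centred on the pan-neuronal genes. Lrfn2, an adhesion protein that binds PSD-95, was at -2.56 ± 0.33 in cortex (adjusted p = 2.3e-05).

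Of 6 transport and anchoring genes, 3 were lower in PVCre striatum and 4 in PVCre cortex, against 35% and 34.3% of all genes. Apba1, an adaptor that links the motor protein KIF17 to GluN2B cargo, was at 9.54 to 9.9 in PV-tdTomato striatum and 7.61 to 7.97 in PVCre striatum, a difference of -1.99 ± 0.23 (SE, limma adjusted p = 7.9e-06). In cortex it differed by -2.04 ± 0.23 (adjusted p = 7e-06). Of 13 kinases, phosphatases and other signalling genes, 6 were lower in PVCre striatum and 11 in PVCre cortex, against the same shares of all genes. The signalling genes lower in both regions included Camk2b, a subunit of CaMKII, at -2.09 ± 0.57 and -2.45 ± 0.57, and Ptpn5, a phosphatase of GluN2B, at -2.1 ± 0.32 and -2.37 ± 0.32.

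Of 6 tested genes that supply the co-agonists glycine and D-serine, 2 were lower in each region, Srr and Slc1a4. That count is near the share of all genes lower in PVCre, 35% in striatum and 34.3% in cortex. Srr encodes serine racemase, which makes D-serine, and was at 10.25 to 10.52 in PV-tdTomato striatum and 8.7 to 9.52 in PVCre striatum, a difference of -1.25 ± 0.15 (SE, limma adjusted p = 1.4e-05). Slc1a4, a transporter of neutral amino acids that carries serine, was at 8.49 to 8.94 and 6.1 to 7.07 in the same groups, a difference of -1.93 ± 0.25 (adjusted p = 2.3e-05). In cortex Slc1a4 differed by -2.74 ± 0.25 (adjusted p = 1.3e-06). Of the genes named here as lower in PVCre, Apba1, Srr, Slc1a4 and Lrfn2 kept a negative difference with arrays centred on the pan-neuronal genes, but none was called there (adjusted p of 0.091 to 0.71). Dlg4, Camk2b and Ptpn5 were chosen for description after their values were seen.

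**Figure D4:**
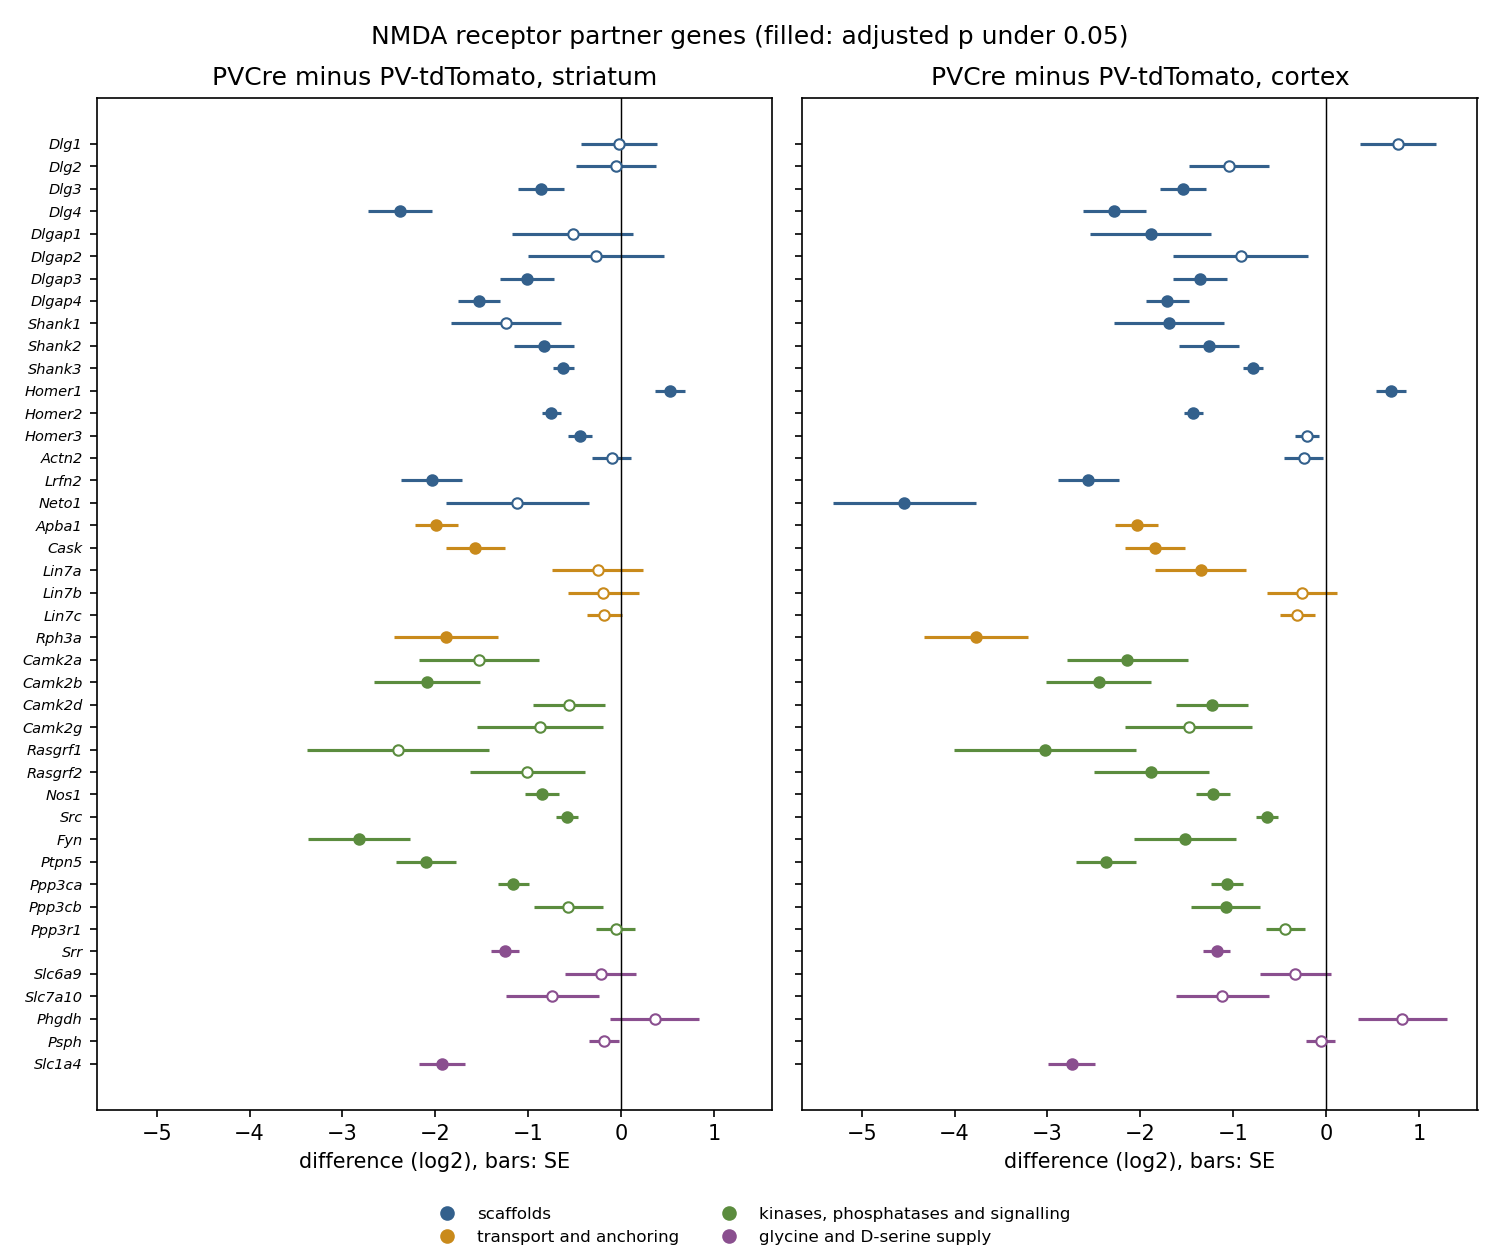
Difference PVCre minus PV-tdTomato (horizontal axis, log2) with its SE for each of the 42 tested partner genes, in striatum and cortex, coloured by role. Filled points passed an adjusted p of 0.05, which 20 lower and 1 higher gene did in striatum and 28 lower and 1 higher in cortex. Homer1 is the filled point to the right of 0 in both panels.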

How the data were processed

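RNA of 16 sorted-cell pools was measured on Affymetrix mouse transcriptome arrays. The authors deposited log2 levels. The submitters' processing notes name RMA and Affymetrix Expression Console, whose version is not given in the sources used here. Of 72688 probe sets, 65956 were transcript clusters, and 31080 carried 1 gene, 1670 several and 33206 none. The symbols of 874 clusters were updated by gene number. The highest-mean cluster stood for each of 357 genes with several. Genes in the lowest 33.3% by mean level (under 5.52) were left out.

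Differences were fitted on the deposited log2 values with limma 3.58.1 in R 4.3.3 (lmFit, eBayes, 1 mean per group, all 16 arrays), with Benjamini-Hochberg adjustment over 20418 genes and a threshold of 0.05. All arrays differed from each other.

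Members, partner lists, marker lists and the naming rule were chosen with earlier results of these data known. All members were named, with up to 4 called partners of smallest p per comparison and the 3 genes most correlated with each member. Some listed partner and marker genes are not reported here.

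Replicate numbers, taken from the titles, are shared by the groups; in PVCre cortex the labels' descriptions number the arrays differently, so its numbers are uncertain. After removal of group means, same-numbered PV-tdTomato arrays of both regions correlated at r = 0.76, 0.58, 0.7 and 0.62. In 2 of 4 the best match was another number. Striatal replicates 1 and 2 best matched cortical replicate 1, and 3 and 4 best matched 3, as in the split by Pvalb. A pairing by number and that split cannot be told apart here. Other comparisons did not pass this check. The main fit was unpaired. The PV-tdTomato arrays were taken as pairs only with the replicate block and in a test of the balance of Grin2b to Grin2a. On simulated data of 20418 genes, the fit found 48% of 50 genes with a true log2 difference of 1 between the PV-tdTomato regions, 62% between the striatal lines and 68% between the cortical lines. Few genes were changed in the simulation, and the noise of genes was independent. In the real data 53.4% and 53.5% of genes were called between the lines, so the simulated line rates do not describe those tests.

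Alternatives were other filters, every cluster, quantile normalization, centring on array medians or on the pan-neuronal genes, a trended robust prior, array weights, the arrays compared alone, the replicate block, and leaving out single arrays, the 6 lowest in Pvalb, or PVCre cortex replicates 2 and 4. For partner genes 4 of these were added after seeing the data. Further software was matplotlib 3.10.9, scipy 1.17.1, pandas 2.3.3, numpy 2.4.6 and Python 3.11.15.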

Additional observations from a re-analysis of the deposited data

Results flagged for a closer look

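In PVCre striatum, replicate 4 had Grin2c at 6.15, while the other 3 arrays lay at 6.23 within rounding, so its gap to the nearest of them was 0.94 of the group's range, above Dixon's 95% limit for 4 samples. The gap is small and close to background. Each of the 6 genes was examined in each of the 4 groups, 24 in all, and chance alone gives about 1 such value in 20.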

How the results depend on the processing

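The line differences of Grin3a kept sign and call in all 28 alternatives run, and those of Grin2c in 27 of 28 in each region. Alternatives that left out only arrays of the other region could change the SE of a line difference but not its size. Centring on the pan-neuronal genes subtracts 1 value from each array, so it moves the difference of every gene in a comparison by the same amount. It also changes the SE, between lines in striatum from 0.1 to 0.62 for Homer2 and from 0.81 to 0.52 for Grin2b. A call lost with that centring is therefore not always a lost difference. The cause of the other changes below was not tested. With arrays centred on the pan-neuronal genes the signs turned for Grin2c between regions over both lines (-0.28), for Grin2b (-0.69), Grin2c (-0.7), Grin2d (-0.62) and Grin3a (-0.69) between regions in PVCre, for Grin2a (0.5), Grin3b (0.68) and Homer2 (0.01) between lines in striatum, for Grin2c (0.63), Grin3b (1.41) and Homer2 (0.1) between lines in cortex, and for Grin3b in the interaction (-0.73). The counts of all genes called then became 134 between regions over both lines, 63 in PV-tdTomato, 36 in PVCre, 473 between lines in striatum, 6893 in cortex and 6 in the interaction, and those of subunits between lines 1 in striatum and 2 in cortex. Quantile normalization turned Grin2a in striatum (0.22), left 2 subunits called between lines there (Grin2b at -1.69, adjusted p = 0.099, and Grin2d at -0.94, adjusted p = 0.093, were lost) and called Grin3b in cortex (-0.25, adjusted p = 0.024), where it was at background. Array weights turned Grin2b (0.12) and Grin2d (0.2) between regions over both lines, Grin2b (0.25) and Grin2d (0.14) in PV-tdTomato, and Grin2b (-0.25) and Grin2c (0.01) in the interaction, with 5581, 1578, 2450 and 131 genes called over both lines, in PV-tdTomato, in PVCre and in the interaction. Without the 6 arrays lowest in Pvalb Grin2b (-1.11) and Grin2d (-0.22) turned between regions in PVCre, and 1593, 1041 and 153 genes were called over both lines, in PV-tdTomato and in the interaction, with 3 subunits in each of the first pair. Without PVCre cortex replicates 2 and 4, the same signs turned in PVCre (-1.11 and -0.22), as did Grin2b in the interaction (-0.25), and 322 genes were called in PVCre, 6 in the interaction and 3 subunits between lines in cortex. In PV-tdTomato, leaving out the lowest 50% of genes gave 307 genes and comparing its arrays alone 286.

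With the replicate block, same-numbered PV-tdTomato arrays taken as pairs gave Grin2a at -1.62 ± 0.43 (SE, limma adjusted p = 0.12) between regions, and no subunit call changed there. The other comparisons did not pass the pairing check. For them the block gave 2069 genes over both lines, 846 of them shared with the fit without it, 2082 in PVCre and 127 in the interaction. It gave 2 subunits between lines in striatum, where Grin2b (adjusted p = 0.062) and Grin2d (adjusted p = 0.091) were not called. Higher calls were 78.2% of those between regions over both lines, but 55.5% with the block, 58% with array weights and 58.8% without the 6 arrays.

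Leaving out 1 array at a time gave 669 to 975 genes between regions over both lines, 340 to 499 in PV-tdTomato, 513 to 821 in PVCre, 9841 to 11047 between lines in striatum, 9831 to 11061 in cortex and 21 to 69 in the interaction. Subunits called were 0 to 1 between regions in PV-tdTomato and, between lines, 2 to 4 in striatum and 4 to 5 in cortex. Signs turned within these ranges for Grin2b (-0.61 to 0.0) and Grin2d (-0.31 to 0.03) over both lines, Grin2a (-0.55 to 0.4) and Grin2b (-0.33 to 0.86) in PVCre, and Grin2c (-0.24 to 0.02) and Grin3b (-0.02 to 0.08) in the interaction. The stricter filter gave no value for Grin3b, and arrays compared alone gave none over both lines or for the interaction. Signal close to background limits Grin3b throughout and Grin2c, Grin2d and Grin3a in PVCre.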

Other observations

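The balance of Grin2b to Grin2a, taken as the log2 level of the first minus that of the second, was examined after the values were seen. The absolute value depends on the probes, and only its change between groups can be read. It was 1.65, 1.88, 1.57 and 1.49 in PV-tdTomato striatum and 1.33, 1.85, 0.1 and 0.26 in PV-tdTomato cortex. In PVCre it was -0.36, -0.25, -0.16 and -0.37 in striatum and -0.6, -0.83, -0.07 and -0.8 in cortex. All PVCre arrays were below all PV-tdTomato arrays of the same region, by a mean difference of -1.93 in striatum and -1.46 in cortex. A two-sided exact permutation test gave p = 0.029 for each, the smallest that 4 against 4 arrays can give, and 0.058 after Benjamini-Hochberg adjustment over 4 comparisons, which does not pass 0.05. The balance was chosen from these same values, without adjustment for other pairs of subunits, so these p-values only describe the separation. Between the regions the balance differed by 0.76 in PV-tdTomato and 0.29 in PVCre, each with an exact permutation p = 0.171 that ignores pairing. With same-numbered PV-tdTomato arrays as pairs, it was higher in striatum in 4 of 4 pairs, by 0.32, 0.02, 1.47 and 1.23 (two-sided exact permutation p = 0.125, the smallest that 4 pairs can give). The larger differences, 1.47 and 1.23, were in the arrays with low Pvalb, where the cortical balance was 0.1 and 0.26.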
